A study of Mus musculus with 8 samples.

Results

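The ErbB receptor genes Egfr, Erbb2 and Erbb3 and the EGF-family ligand genes Areg, Ereg, Hbegf, Tgfa, Btc and Epgn were followed through 8 RNA sequencing libraries of the mouse mammary carcinoma lines TS/A and 4T1, both of BALB/c origin. These 9 genes were taken by name from the 22026 gene names in the deposited tables, and the reads of a gene's transcript entries were summed. Per the sample characteristics, the cells carried either a virus vector expressing Gpr56, an adhesion G protein-coupled receptor now named Adgrg1, or an empty vector. There were thus 4 groups of 2 libraries each: TS/A with the Gpr56 vector, TS/A with the empty vector, 4T1 with the Gpr56 vector and 4T1 with the empty vector. All were grown in RPMI with 10% FCS, and the series text gives a culture of 72 h with type III collagen before RNA extraction. The sample titles differ from the characteristics. All carry Emp, and libraries with the Gpr56 vector by the characteristics are titled Emp_ColIII, the others Emp_Control. A difference between the vector labels therefore cannot be told apart from one between these titles. The groups are named here by the characteristics. Nothing in the labels tells if both libraries of a group stem from different cultures. The p-values therefore cover the spread between these samples alone, which may be technical.

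ErbB receptors are tyrosine kinases of the cell surface that pair up when an EGF-family ligand binds, and then signal mainly through the RAS-MAPK and PI3K routes. EGFR binds the ligands in this set, and ERBB2 has no known ligand of its own and serves as a partner. ERBB3 has a weak kinase, binds neuregulins and couples to PI3K through its tail. The ligands are made as membrane-anchored precursors that metalloproteases cut free. In the mammary gland, amphiregulin acting on EGFR is needed for ductal growth, and ERBB2 is an oncogene of breast carcinoma.

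The deposited tables held between 10510569 and 25959142 reads per library, so that 3 reads correspond to a level of 0.285 CPM (reads scaled to a common library total) in 4T1 Gpr56 library 2, the shallowest. The vector gene itself checks the labels. Adgrg1 stood at 22.6 and 13.3 CPM in the TS/A libraries labelled Gpr56, against 34.8 and 16.3 CPM in TS/A empty-vector libraries. In 4T1 it stood at 90.5 and 100.1 CPM with the Gpr56 vector, against 2.53 and 2.77 CPM with the empty vector. Adgrg1 was therefore higher with its vector in 4T1 (a log2 difference of 5.16 with an SE of 0.43, adjusted p = 0.00851 by the edgeR quasi-likelihood test). Without any 1 of the 4T1 libraries the log2 difference was 5.09 to 5.23 and the adjusted p 0.0736 to 0.201 (edgeR). Both 4T1 groups stayed far apart in CPM, while in TS/A the groups overlapped with the lower mean under the Gpr56 label (log2 fold change -0.51, but 0.15 when the first empty-vector library was left out and -0.94 when the second was). The TS/A libraries are for this reason called libraries labelled Gpr56, and a direction drawn from that label rests on it alone. The TS/A empty-vector libraries stood furthest apart as a pair, with a chi-square per degree of freedom of 118, against 3.58 to 17.4 in the other groups.

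Both lines differed in mammary epithelial markers. The summed level of 8 such markers was 206 to 257 CPM in TS/A libraries labelled Gpr56, 190 to 201 CPM in TS/A empty-vector, 2985 to 3070 CPM in 4T1 Gpr56-vector and 2132 to 2164 CPM in 4T1 empty-vector libraries. In all TS/A libraries Epcam, Krt8, Cdh1, Krt7, Esrp1 and Cldn7 were each at most 0.574 CPM, and Krt18 and Krt19 made up nearly all of the sum. Of 8 fibroblast markers, Col1a1 reached 138 to 311 CPM in TS/A and at most 1.74 CPM in 4T1. Pdgfra overlapped between the lines, with 8.40 to 15.0 CPM in TS/A, 7.96 and 8.25 CPM in 4T1 Gpr56-vector and 13.3 CPM in both 4T1 empty-vector libraries, while Lum and Thy1 had no read in any library and Dcn, Col3a1 and Col1a2 stayed at or below 0.394 CPM. The 9 immune markers summed to at most 3.20 CPM in TS/A, to 15.5 and 19.6 CPM in 4T1 Gpr56-vector and to 7.31 and 7.60 CPM in 4T1 empty-vector libraries. Most of that was Cd68, with no read of Cd3e or Adgre1 anywhere. The 6 endothelial markers summed to at most 0.897 CPM in any library.

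Promoter sequence is shown for the members whose level differed most clearly between the lines in each direction and for which RefSeq (GRCm38.p6) gave one. Of the 9 members, 6 matched a RefSeq promoter (Egfr, Erbb2, Areg, Tgfa, Btc and Epgn). The 250 bases before the annotated start are given 5′ to 3′ on the gene's strand. Areg lies at chr5:91139349-91139598 on the plus strand, Btc at chr5:91402995-91403244 on the minus strand, Egfr at chr11:16751953-16752202 on the plus strand and Tgfa at chr6:86194972-86195221 on the plus strand. Capitals mark matches to 5 short motifs searched on both strands, namely the cAMP response element TGACGTCA, the AP-1 site TGANTCA, the GC box GGGCGG, the TEAD site GGAATG and the TATA box TATAAA.
Areg: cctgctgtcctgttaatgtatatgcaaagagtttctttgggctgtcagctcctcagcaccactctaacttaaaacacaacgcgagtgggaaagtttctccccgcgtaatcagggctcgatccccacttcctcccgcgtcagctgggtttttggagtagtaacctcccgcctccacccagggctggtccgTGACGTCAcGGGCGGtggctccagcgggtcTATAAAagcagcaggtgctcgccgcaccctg
Btc: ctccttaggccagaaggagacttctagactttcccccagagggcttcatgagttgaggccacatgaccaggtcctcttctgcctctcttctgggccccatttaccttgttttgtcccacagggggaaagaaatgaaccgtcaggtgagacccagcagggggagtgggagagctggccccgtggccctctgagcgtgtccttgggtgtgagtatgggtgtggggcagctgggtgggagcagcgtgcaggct
Egfr: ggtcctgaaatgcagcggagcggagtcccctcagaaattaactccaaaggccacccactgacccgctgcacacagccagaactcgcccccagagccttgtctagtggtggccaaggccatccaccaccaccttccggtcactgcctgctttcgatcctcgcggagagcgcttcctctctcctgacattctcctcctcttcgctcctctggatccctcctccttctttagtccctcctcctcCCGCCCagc
Tgfa: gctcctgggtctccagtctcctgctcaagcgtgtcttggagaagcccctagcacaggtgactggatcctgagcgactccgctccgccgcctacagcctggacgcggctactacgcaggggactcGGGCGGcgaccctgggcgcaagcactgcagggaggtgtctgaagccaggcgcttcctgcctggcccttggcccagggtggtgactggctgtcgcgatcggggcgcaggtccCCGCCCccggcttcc
The Areg promoter held a TGACGTCA from -61 to -54, a GC box from -52 to -47 and a TATAAA from -31 to -26, counted from the start. TGACGTCA was present in 1.55% of 32851 RefSeq mouse promoter windows of the same length, TATAAA in 12.4% and GGGCGG in 32.7%. Tgfa held a GC box on each strand, from -126 to -121 and from -15 to -10, and Egfr held 1 on the reverse strand from -9 to -4. Btc held none of the 5 motifs, and no member's window held TGANTCA, which 6.75% of all windows did. In windows not printed, Epgn held a TATAAA from -86 to -81 and Erbb2 a GGAATG from -88 to -83, a motif in 12.6% of windows. A GC box was thus present both in members that were higher in TS/A (Areg and Egfr) and in 1 that was lower (Tgfa).

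Per transcript length, Areg and Hbegf were the most abundant members in every library, and Erbb2 was the most abundant receptor. On the deposited RPKM scale (reads scaled to transcript length and library size, summed over a gene's entries), Areg, the ligand of ductal growth, averaged 116 ± 0.41 in TS/A libraries labelled Gpr56, 113 ± 13.6 in TS/A empty-vector, 57.96 ± 6.15 in 4T1 Gpr56-vector and 45.0 ± 1.42 in 4T1 empty-vector libraries (SD, n = 2 each, as for all means here). Hbegf, the heparin-binding ligand, averaged 89.8 ± 0.41, 77.3 ± 9.40, 55.0 ± 2.12 and 52.4 ± 0.54 RPKM in those 4 groups in turn. The order of these top ligands changed with the group: Areg stood above Hbegf in every TS/A library, the libraries of both genes overlapped in 4T1 with the Gpr56 vector, and Hbegf stood above Areg in both 4T1 empty-vector libraries. Tgfa, transforming growth factor alpha, came next in 4T1, with 15.1 ± 0.34 RPKM under the Gpr56 vector and 11.6 ± 0.19 RPKM under the empty vector. In TS/A it stood at 3.12 ± 0.54 RPKM under the Gpr56 label and 2.83 ± 1.02 RPKM under the empty vector, where its libraries overlapped those of Btc. Erbb2 averaged between 7.46 and 9.92 RPKM in all 4 groups. At the low end, Epgn averaged 0.164 to 0.636 RPKM and Erbb3 in TS/A 0.272 to 0.290 RPKM.

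The make-up of each class followed from this. Erbb2 made up 65.0% to 74.6% of the summed receptor RPKM in every library. The rest was mainly Egfr in TS/A (23.0% to 32.1%), with 2.10% to 2.91% for Erbb3, and was divided between Egfr (10.3% to 15.7%) and Erbb3 (12.3% to 19.6%) in 4T1. A short Egfr transcript entry gave from 0.458 of 1.52 RPKM (4T1 Gpr56 library 2) to 1.92 of 3.80 RPKM (TS/A library 1 labelled Gpr56). How reads shared with the long entry were divided is not stated, and the receptor shares depend on it. Among ligands, Tgfa made up 1.17% to 1.66% in TS/A and 10.2% to 12% in 4T1. Areg took 54.4% to 57.6% in TS/A and 39.9% to 46.7% in 4T1. The summed ligand level was 211 and 214 RPKM in TS/A libraries labelled Gpr56, 214 and 180 RPKM in TS/A empty-vector, 133 and 128 RPKM in 4T1 Gpr56-vector and 110 and 112 RPKM in 4T1 empty-vector libraries. The summed receptor level overlapped between the lines, at 8.78 to 13.2 RPKM in TS/A and 9.71 to 14.7 RPKM in 4T1.

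**Figure D1:**
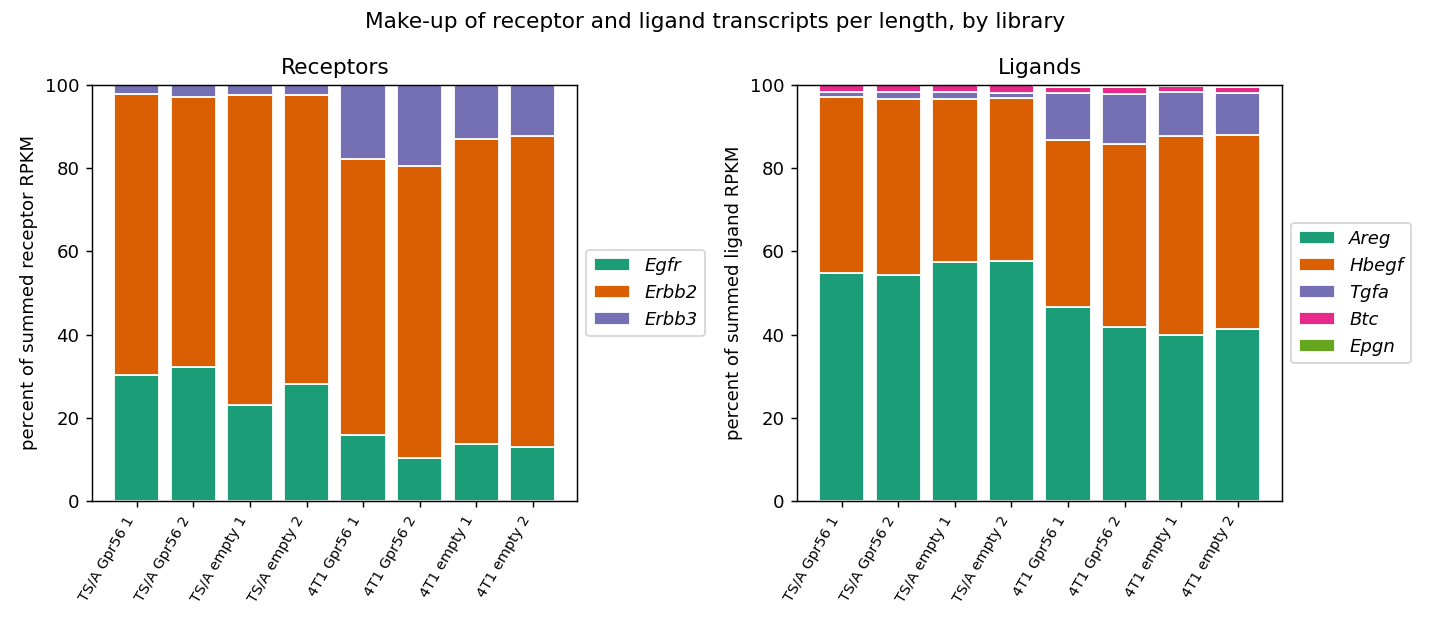
Share of each receptor in the summed receptor RPKM (left) and of each ligand in the summed ligand RPKM (right), in percent, 1 stacked bar per library. Erbb2 fills 65.0% to 74.6% of every receptor bar, Erbb3 at most 2.91% of a TS/A bar and at least 12.3% of a 4T1 bar, and Tgfa at most 1.66% of a TS/A ligand bar and at least 10.2% of a 4T1 ligand bar.

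With the empty vector, TS/A cells had higher levels of Egfr, Areg, Hbegf and Btc and lower levels of Erbb3 and Tgfa than 4T1 cells, while Erbb2 was near equal. In the edgeR quasi-likelihood fit of all 8 libraries, 6 of the 8 members with enough reads to test passed an adjusted p of 0.05 (Benjamini-Hochberg over 11970 genes), 4 higher and 2 lower. This has to be read against the whole table, in which 47.4% of tested genes passed, 23.9% higher and 23.5% lower. The members' median log2 fold change was 0.29, against 0.01 over all tested genes. In bulk RNA of this kind, fewer cells that express a gene and less RNA per cell cannot be told apart.

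Of the receptors, Egfr read 24.1 and 18.8 CPM in TS/A empty-vector libraries, against 11.1 and 9.86 CPM in 4T1 empty-vector libraries. Both TS/A values lay above both 4T1 values, with a log2 fold change of 1.03 (SE 0.20, adjusted p = 0.00411, edgeR). Erbb3, the neuregulin receptor, read 1.97 and 1.45 CPM in TS/A empty-vector libraries, against 8.66 and 7.75 CPM in 4T1 empty-vector libraries. It was 4.74-fold lower in TS/A (log2 fold change -2.24, SE 0.23, adjusted p = 1.51e-04, edgeR), the largest change among the members in this contrast. The mammary epithelial marker sum was also about an order of magnitude lower in TS/A, and its part in the Erbb3 difference was not tested. Erbb2, the partner receptor, read 49.5 and 33.8 CPM in TS/A empty-vector libraries, against 41.1 and 39.1 CPM in 4T1 empty-vector libraries. The 4T1 values lay between the TS/A values, and the log2 fold change was 0.06 (SE 0.18, adjusted p = 0.818, edgeR). That value depended on 1 library: it was -0.25 (adjusted p = 0.0899) without TS/A empty library 1 and 0.30 (adjusted p = 0.0394) without TS/A empty library 2, edgeR in both.

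Among the ligands, Areg read 149.5 and 139 CPM in TS/A empty-vector libraries, against 57.1 and 60.2 CPM in 4T1 empty-vector libraries. The log2 fold change was 1.3 (SE 0.12, adjusted p = 8.41e-05, edgeR), and the libraries of each line lay close together. Btc, betacellulin, which binds EGFR and ERBB4, read 10.1 and 11.1 CPM in TS/A empty-vector libraries, against 4.72 and 4.79 CPM in 4T1 empty-vector libraries (log2 fold change 1.15, SE 0.18, adjusted p = 0.00122, edgeR). Hbegf read 199.6 and 185 CPM in TS/A empty-vector libraries, against 134 and 133 CPM in 4T1 empty-vector libraries. Its difference was the smallest of those that passed, with a log2 fold change of 0.53 (SE 0.10, adjusted p = 0.00385, edgeR), and it missed the threshold without 4T1 empty library 2 (adjusted p = 0.0506, edgeR). Tgfa went the other way, with 16.1 and 10.6 CPM in TS/A empty-vector libraries, against 56.5 and 55.7 CPM in 4T1 empty-vector libraries. It was 4.19-fold lower in TS/A (log2 fold change -2.07, SE 0.21, adjusted p = 1.39e-04, edgeR).

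The ligands with the fewest reads gave little. Epgn, epigen, a weak EGFR ligand, had 7 and 6 reads in TS/A empty-vector libraries (0.287 and 0.323 CPM), against 12 and 16 reads in 4T1 empty-vector libraries (0.675 and 0.752 CPM). The values did not overlap, and the log2 fold change of -1.22 (SE 0.47, adjusted p = 0.0629, edgeR) missed the threshold. Ereg, epiregulin, a ligand of EGFR and ERBB4, had 0 of 161842793 reads in all 8 libraries, which allows a level of up to 0.0185 CPM over the pooled libraries. Like the other floors here, this covers counting error only. Without a test, the libraries of the 2 lines did not overlap for 7 of the 8 tested members, as for 72.6% of all tested genes.

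**Figure D2:**
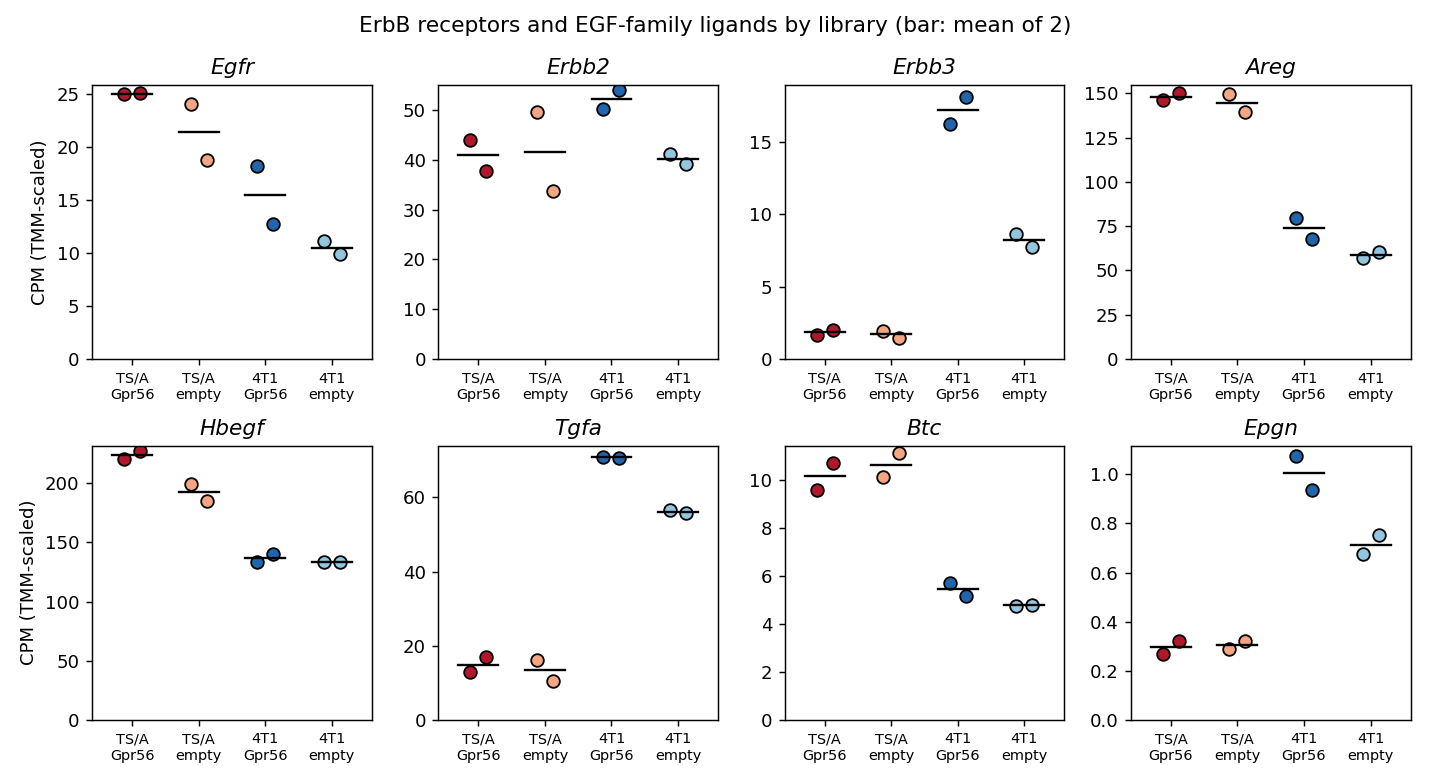
CPM (scaled by TMM factors, linear axis from 0) of the 8 members with reads, 1 point per library and a bar at the mean of 2 libraries, by line and vector label. Erbb3 and Tgfa sit low in all 4 TS/A libraries, Areg, Hbegf and Btc sit low in all 4 4T1 libraries, and Erbb2 overlaps between the lines.

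Among the libraries labelled Gpr56, the line contrast kept its direction for every member that had passed with the empty vector. Adgrg1 itself was lower in these TS/A libraries than in the 4T1 ones (log2 fold change -2.40, SE 0.36, adjusted p = 8.38e-04, edgeR). With the empty vector Adgrg1 was instead higher in TS/A than in 4T1 (log2 fold change 3.27, SE 0.41, adjusted p = 4.35e-04, edgeR). Line and level of the vector gene therefore cannot be told apart in either line contrast. TS/A libraries labelled Gpr56 read 25.0 and 25.1 CPM of Egfr, against 18.2 and 12.7 CPM in 4T1 Gpr56-vector libraries, a log2 fold change of 0.68 (SE 0.20, adjusted p = 0.0211, edgeR). Erbb3 read 1.64 and 2.03 CPM in those TS/A libraries, against 16.2 and 18.1 CPM in 4T1 Gpr56-vector libraries, which is 9.35-fold lower (log2 fold change -3.23, SE 0.23, adjusted p = 1.68e-05, edgeR). Areg (1.0), Btc (0.89), Hbegf (0.71), Tgfa (-2.26) and Epgn (-1.77) also passed in log2 fold change, so that 7 of 8 members did, where 54% of all tested genes did. Erbb2 read 43.9 and 37.8 CPM in TS/A libraries labelled Gpr56, against 50.2 and 54.0 CPM in 4T1 Gpr56-vector libraries, and with a log2 fold change of -0.35 (SE 0.18, adjusted p = 0.140, edgeR) did not pass. The libraries of the lines did not overlap under this label for 8 of 8 members, as for 84% of all tested genes.

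**Figure D3:**
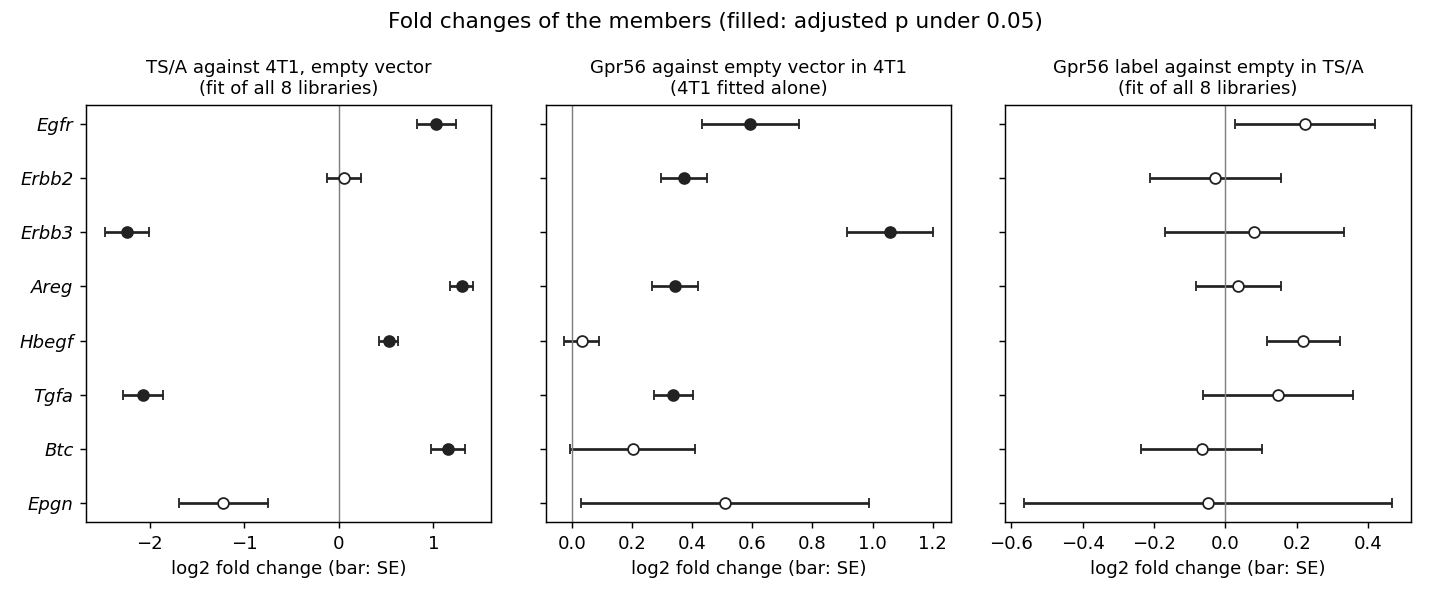
Log2 fold changes of the 8 tested members with their standard errors, for TS/A over 4T1 in empty-vector cells, the Gpr56 against the empty vector in 4T1 fitted alone, and the Gpr56 label against the empty vector in TS/A. Filled points passed an adjusted p of 0.05: 6 members in the first panel, 5 in the second and 0 in the third.

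Within 4T1, 7 of the 8 tested members read higher in both Gpr56-vector libraries than in both empty-vector libraries, the exception being Hbegf. The libraries of the 2 groups separated in this way, upwards, for 29.5% of all tested genes, and in either direction for 59.9%. In the fit of all 8 libraries, 0 of the 8 members passed the adjusted p of 0.05 by edgeR, where 27 of 11970 genes did (0.226%). At an unadjusted p of 0.05, 3 members and 1367 genes were below the threshold, and the Wald test of DESeq2 called 1 member, Erbb3. With the 4 libraries of 4T1 fitted alone, 5 members passed, all higher, where 22.8% of 11361 genes passed, 11.5% higher and 11.3% lower. Of those calls over all genes 50.5% were higher, and 60.9% when the libraries were scaled by their totals alone, a choice made after the data were seen, under which 5 members were again higher and 0 lower. The fit of 4T1 alone, with TMM factors, had a biological coefficient of variation of 5.47%, against 14.7% with all 8 libraries. The median log2 fold change of the members was 0.36 in either fit, against 0.00 over all tested genes.

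Erbb3 showed the largest of these differences. It read 16.2 and 18.1 CPM in 4T1 Gpr56-vector libraries, against 8.66 and 7.75 CPM in 4T1 empty-vector libraries. The log2 fold change was 1.06 in both fits, with an SE of 0.20 and an adjusted p of 0.0980 with all 8 libraries and an SE of 0.14 and an adjusted p of 9.29e-05 with 4T1 alone (edgeR). The mammary epithelial marker sum and the immune marker sum were also higher in the 4T1 Gpr56-vector libraries. Each epithelial marker but Cldn7 read higher there. Cldn7 read 1.59 and 1.87 CPM in 4T1 Gpr56-vector libraries, against 2.53 and 2.21 CPM in 4T1 empty-vector libraries. The fibroblast marker sum, most of it Pdgfra, was lower, with 8.64 and 9.89 CPM in 4T1 Gpr56-vector libraries, against 15.6 and 15.3 CPM in 4T1 empty-vector libraries. The part of these marker sums in the Erbb3 difference was not tested. Egfr read 18.2 and 12.7 CPM in 4T1 Gpr56-vector libraries, against 11.1 and 9.86 CPM in 4T1 empty-vector libraries. Its log2 fold change of 0.59 (SE 0.16, adjusted p = 0.0158, edgeR, 4T1 alone) rested on 1 library, being 0.28 (adjusted p = 0.273) without 4T1 Gpr56 library 1. It also missed the threshold without 4T1 empty library 2 (adjusted p = 0.0543, edgeR). Erbb2 read 50.2 and 54.0 CPM in 4T1 Gpr56-vector libraries, against 41.1 and 39.1 CPM in 4T1 empty-vector libraries, a log2 fold change of 0.37 (SE 0.08, adjusted p = 0.00255, edgeR, 4T1 alone).

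Of the ligands in 4T1, Tgfa read 71.0 and 70.8 CPM in Gpr56-vector libraries, against 56.5 and 55.7 CPM in empty-vector libraries. Its log2 fold change was 0.34 (SE 0.06, adjusted p = 0.00153, edgeR, 4T1 alone). Areg read 79.6 and 68.0 CPM in 4T1 Gpr56-vector libraries, against 57.1 and 60.2 CPM in 4T1 empty-vector libraries (log2 fold change 0.34, SE 0.08, adjusted p = 0.00463, edgeR, 4T1 alone). Without 4T1 Gpr56 library 1 it was 0.21 with an adjusted p of 0.0633 (edgeR). Hbegf read 133.5 and 140 CPM in 4T1 Gpr56-vector libraries, against 134 and 133 CPM in 4T1 empty-vector libraries, and the groups overlapped (log2 fold change 0.03, SE 0.06, adjusted p = 0.742, edgeR, 4T1 alone). Btc, with 5.71 and 5.16 CPM in 4T1 Gpr56-vector libraries, against 4.72 and 4.79 CPM in 4T1 empty-vector libraries, did not pass (adjusted p = 0.532, edgeR, 4T1 alone). Epgn had 23 and 10 reads in 4T1 Gpr56-vector libraries (1.08 and 0.937 CPM), against 12 and 16 reads in 4T1 empty-vector libraries (0.675 and 0.752 CPM). It did not pass either (adjusted p = 0.490, edgeR, 4T1 alone).

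In TS/A, no member passed the test between the labels. In the fit of all 8 libraries, 0 of 8 members passed by edgeR, where 1 of 11970 genes did (0.00835%). At an unadjusted p of 0.05 there were 0 members and 416 genes below the threshold, and the DESeq2 Wald test called 0 members. With TS/A fitted alone, 0 of 11276 genes passed by edgeR, 115 were below an unadjusted p of 0.05, and 7 of the 9 members were tested. Hbegf read 221 and 227 CPM in TS/A libraries labelled Gpr56, against 199.6 and 185 CPM in TS/A empty-vector libraries, with a log2 fold change of 0.22 (SE 0.10, adjusted p = 1 with all 8 libraries, edgeR). Egfr read 25.0 and 25.1 CPM in TS/A libraries labelled Gpr56, against 24.1 and 18.8 CPM in TS/A empty-vector libraries, also a log2 fold change of 0.22 (SE 0.20, adjusted p = 1, edgeR). These were the 2 of 8 members whose libraries did not overlap between the labels, against 21.6% of all tested genes. The other 6 members had log2 fold changes from -0.07 to 0.15.

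The difference between the vector effects, TS/A minus 4T1, was tested directly. None of the 8 members passed by edgeR, where 8 of 11970 genes did (0.0668%), with 1 member and 766 genes below an unadjusted p of 0.05 and 0 members called by the DESeq2 Wald test. Erbb3 came closest, with a log2 difference of -0.98 (SE 0.32, unadjusted p = 0.0156, adjusted p = 0.604, edgeR). Without TS/A empty library 2 it was -1.17 (adjusted p = 0.0308, edgeR), and Erbb2 then also passed with a log2 difference of -0.64 (adjusted p = 0.0111, edgeR), in a setting where 2391 genes passed in all. Without TS/A empty library 1, 0 members and 311 genes passed.

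Areg, Ereg, Epgn and Btc are neighbours on chromosome 5. In GENCODE M21 (GRCm38), Epgn lies at chr5:91027464-91035215, Ereg at chr5:91074622-91093646 and Areg at chr5:91139599-91148432, all on the plus strand, and Btc at chr5:91357261-91402994 on the minus strand. The stretch spans 375.531 kb, with gaps of 39.407, 45.953 and 208.829 kb and no other protein-coding gene between them. Levels differed widely along it: Areg stood at 44.0 to 123 RPKM over the 8 libraries, Btc at 1.54 to 3.62 RPKM, Epgn at 0.163 to 0.762 RPKM and Ereg at 0 reads. The direction between the lines also differed. Areg and Btc were higher in TS/A with the empty vector, by 2.46-fold and 2.23-fold, and Epgn read lower in TS/A, without passing the test. The antisense gene Gm19610 overlaps the start of Ereg, and the library kit did not mark strand.

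**Figure D4:**
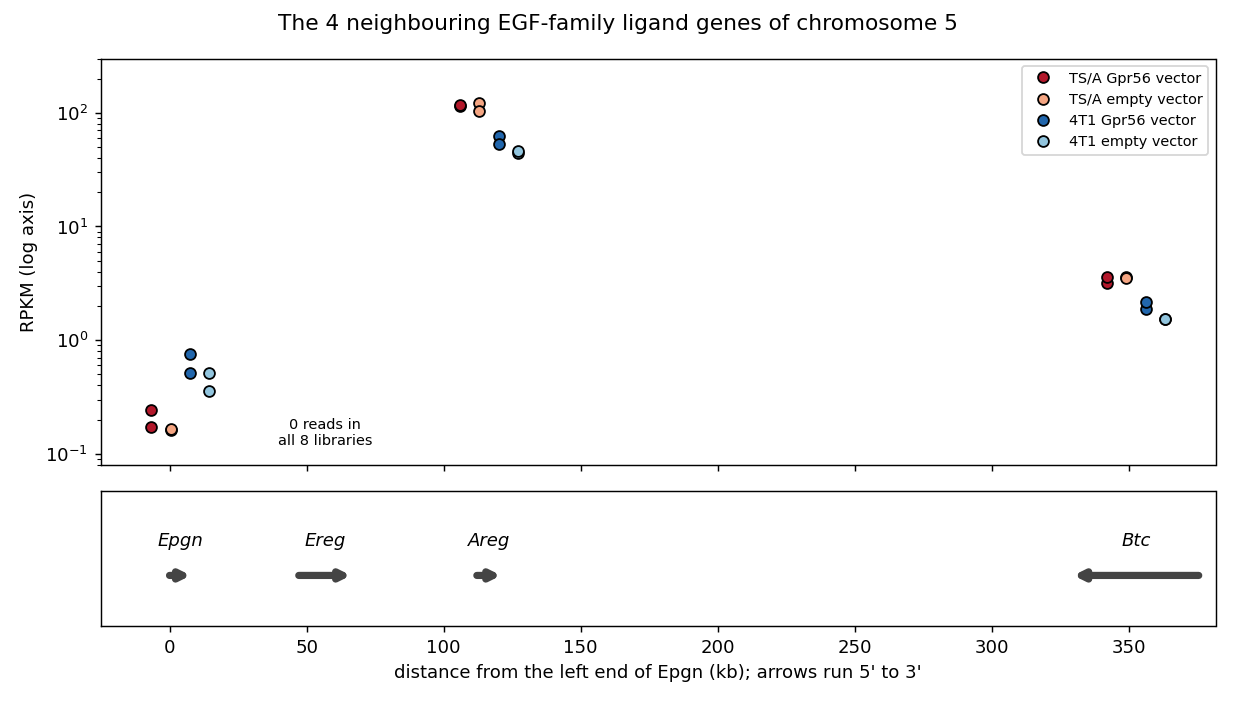
RPKM (log axis) in each library of the 4 neighbouring ligand genes of chromosome 5, plotted at the gene's distance in kb from the left end of Epgn, with a map of the genes and their direction under it. Areg stands at 44.0 to 123 RPKM between Ereg, which had 0 reads, and Btc, which stands at 1.54 to 3.62 RPKM.

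The other receptor and ligand genes lie apart, with Egfr at chr11:16752203-16918158 and Erbb2 at chr11:98412470-98437716 on the plus strand, Erbb3 at chr10:128567523-128589652 on the minus strand and Tgfa at chr6:86195223-86275719 on the plus strand. Hbegf is on the minus strand of chr18:36504927-36515805. Of the members, Egfr had reads in 2 main transcript entries, a long one with a coding length of 3630 bases and a short one of 1965 bases. The short entry took 23.5% and 20.8% of Egfr reads in TS/A libraries labelled Gpr56, 11.8% and 19.5% in TS/A empty-vector, 13.4% and 11.03% in 4T1 Gpr56-vector and 16.2% and 16.7% in 4T1 empty-vector libraries. Wilson 95% intervals were 9.40% to 14.6% for TS/A empty library 1 and 15.7% to 24.0% for TS/A empty library 2, so that libraries of 1 group differed by more than counting error. Both entries overlap in sequence, and the labels and file headers do not state how shared reads were divided.

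The rest of the ERBB family was sparse. Of Erbb4, Egf, Nrg1, Nrg2, Nrg3 and Nrg4, the first and Nrg3 had no read in any library, and 4 were tested. Nrg1, a neuregulin ligand of ERBB3, read 3.32 and 2.69 CPM in TS/A empty-vector libraries, against 21.04 and 21.2 CPM in 4T1 empty-vector libraries, so it was lower in TS/A like its receptor (log2 fold change -2.80, SE 0.17, adjusted p = 8.60e-06, edgeR). Nrg2, a related neuregulin, was higher, with 8.53 and 4.58 CPM in TS/A empty-vector libraries, against 1.69 and 1.17 CPM in 4T1 empty-vector libraries (log2 fold change 2.21, SE 0.37, adjusted p = 0.00176, edgeR). Egf and Nrg4 were at most 0.923 CPM in any library and did not pass with the empty vector. Among the libraries labelled Gpr56, Egf was higher in TS/A than in 4T1 (log2 fold change 3.01, SE 0.84, adjusted p = 0.0163, edgeR) and Nrg4 did not pass. That Egf difference came from 17 and 20 reads in TS/A, against 3 and 0 reads in 4T1, which is near the floor. Between the vectors in 4T1, Nrg1 read 19.1 and 19.3 CPM in Gpr56-vector libraries, against 21.04 and 21.2 CPM in empty-vector libraries, and 0 of 2 genes tested with 4T1 alone passed.

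Genes that release the ligands went both ways between the lines. Of 12 genes for shedding and trafficking, 11 were tested, and in TS/A relative to 4T1, both with the empty vector, 3 were higher and 3 lower, with a median log2 fold change of -0.09. Over all genes tested in that contrast 23.9% were higher and 23.5% lower, and the same shares apply to the other lists. Adam10, a sheddase of Btc, averaged 186 ± 39.5 CPM in TS/A empty-vector and 128 ± 4.24 CPM in 4T1 empty-vector libraries (log2 fold change 0.54, adjusted p = 0.0199, edgeR). The Adam10 call held under 12 of 15 alternatives. Among the libraries labelled Gpr56 its log2 fold change was 0.37 (adjusted p = 0.0718, edgeR). Adam17, the main sheddase of Areg, Tgfa and Hbegf, read 140 and 118 CPM in TS/A empty-vector libraries, against 110 and 106 CPM in 4T1 empty-vector libraries, and did not pass (adjusted p = 0.108, edgeR). Of its partners in trafficking, Rhbdf1 averaged 32.0 ± 8.22 CPM in TS/A empty-vector and 73.5 ± 4.23 CPM in 4T1 empty-vector libraries (log2 fold change -1.20, adjusted p = 0.00196, edgeR), and Rhbdf2 averaged 38.4 ± 6.97 CPM in TS/A empty-vector and 28.4 ± 0.30 CPM in 4T1 empty-vector libraries (0.43, adjusted p = 0.0423, edgeR). The Rhbdf2 call held under 5 of 15 alternatives: the adjusted p was 0.0656 with library totals, 0.0520 with the replicate block and 0.113 among the libraries labelled Gpr56 (edgeR), and without TS/A empty library 1 the log2 fold change was 0.23 (adjusted p = 0.0900, edgeR). Adam9 (0.45) was higher and Adam12 (-2.30) lower, both metalloproteases, and Nkd2, which escorts Tgfa precursors to the membrane, was lower with 0 and 2 reads in the TS/A empty-vector libraries. Leaving out TS/A empty library 1 gave 2 higher and 5 lower, and leaving out TS/A empty library 2 gave 5 higher and 3 lower.

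In 4T1 fitted alone, 4 of the 11 shedding genes were higher with the Gpr56 vector and 0 lower, where 11.5% of all tested genes were higher and 11.3% lower. Leaving out 1 library of 4T1 gave 3 or 4 higher and 0 lower. Adam8 averaged 49.1 ± 0.19 CPM with the Gpr56 vector and 31.9 ± 2.93 CPM with the empty vector (a log2 fold change of 0.62 with an SE of 0.08, adjusted p = 1.03e-04, edgeR). Rhbdf2 averaged 39.1 ± 1.83 CPM with the Gpr56 vector and 28.4 ± 0.30 CPM with the empty vector (0.45, SE 0.09, adjusted p = 0.00173, edgeR). Bace1 (0.31) and Rhbdf1 (0.20) were the others in log2 fold change, and Adam10 and Adam17 did not pass.

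Of 17 genes that inhibit the receptors or direct their degradation, 16 were tested. Between the lines with the empty vector, 2 were higher and 5 lower in TS/A, with a median log2 fold change of -0.08. The ubiquitin ligase gene Cblc read 0.0820 and 0.0538 CPM in TS/A empty-vector libraries, from 2 and 1 reads, against 7.09 and 6.44 CPM in 4T1 empty-vector libraries (adjusted p = 6.22e-06, edgeR). The phosphatase gene Ptpn18 was likewise near 0 in TS/A, with 2 and 3 reads in the empty-vector libraries, against 2.98 and 4.04 CPM in 4T1 empty-vector libraries (adjusted p = 1.35e-04, edgeR). Rnf41, a ubiquitin ligase that acts on ERBB3, averaged 37.1 ± 3.85 CPM in TS/A empty-vector and 26.1 ± 1.24 CPM in 4T1 empty-vector libraries (log2 fold change 0.50, SE 0.13, adjusted p = 0.0124, edgeR). It missed the threshold without 4T1 empty library 1 (adjusted p = 0.107) or library 2 (adjusted p = 0.0662), edgeR in both. Lrig3 (0.60) was the other higher gene, and Cblb (-0.71), Usp8 (-0.53) and Ptpn1 (-0.38) the other lower ones. The Lrig3 call held under 10 of 15 alternatives. Without TS/A empty library 1 the counts were 2 higher and 8 lower, and without TS/A empty library 2 they were 5 higher and 4 lower.

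With 4T1 fitted alone, 4 of these 16 genes were higher with the Gpr56 vector and 0 lower. Over all genes tested in that fit 11.5% were higher and 11.3% lower. Cblc averaged 14.8 ± 0.32 CPM with the Gpr56 vector and 6.76 ± 0.46 CPM with the empty vector (a log2 fold change of 1.13 with an SE of 0.15, adjusted p = 7.73e-05, edgeR). Ptprj, a phosphatase gene, averaged 28.9 ± 0.46 CPM with the Gpr56 vector and 16.3 ± 0.15 CPM with the empty vector (0.83, SE 0.11, adjusted p = 6.50e-05, edgeR). Errfi1, which encodes a feedback inhibitor of EGFR and ERBB2 kinases, averaged 330.5 ± 11.2 CPM with the Gpr56 vector and 263 ± 5.39 CPM with the empty vector (0.33, SE 0.05, adjusted p = 5.48e-04, edgeR). Rnf41 (0.31) was the fourth. With 1 library of 4T1 left out, the log2 fold change ran from 1.06 to 1.20 for Cblc and from 0.81 to 0.85 for Ptprj. For Errfi1 it ran from 0.29 to 0.36.

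Signalling genes downstream of the receptors were mixed between the lines. Of 16 genes of the RAS-MAPK and adaptor chain, 5 were higher and 5 lower in TS/A with the empty vector, with a median log2 fold change of -0.04. Mapk3 averaged 92.6 ± 3.93 CPM in TS/A empty-vector and 50.4 ± 0.77 CPM in 4T1 empty-vector libraries (log2 fold change 0.88, SE 0.12, adjusted p = 7.49e-04, edgeR). Gab1, an adaptor that links the receptors to PI3K, had 0 reads in all 4 TS/A libraries, against 5.51 and 6.53 CPM in 4T1 empty-vector libraries. Taking 3 reads per library as the floor, it was at least 42.1-fold lower in TS/A with the empty vector and at least 29.7-fold lower under the Gpr56 label. Map2k1 (0.61), Shc1 (0.69) and Ksr1 (1.05) were among the other higher genes, and Map2k2 (-0.66), Araf (-0.47), Sos1 (-0.48) and Hras (-0.52) the other lower ones.

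Of 11 genes of the PI3K arm, 2 were higher and 4 lower in TS/A with the empty vector, with a median log2 fold change of -0.21. The insulin receptor substrates went opposite ways, both by a large margin. Irs1 averaged 39.2 ± 13.8 CPM in TS/A empty-vector and 5.51 ± 1.83 CPM in 4T1 empty-vector libraries (2.82, SE 0.31, adjusted p = 1.93e-04, edgeR), and Irs2 averaged 7.86 ± 2.21 CPM in TS/A empty-vector and 49.99 ± 1.28 CPM in 4T1 empty-vector libraries (-2.66, SE 0.20, adjusted p = 2.99e-05, edgeR). Pik3r2 (0.51) was the other higher gene, and Mtor (-0.66) and Akt1 (-0.45) were among the other lower ones. Without TS/A empty library 1 the counts were 2 higher and 7 lower, and without TS/A empty library 2 they were 4 higher and 4 lower. With 4T1 fitted alone, the Gpr56 vector went with 1 gene higher and 2 lower in each of these signalling lists, where 11.5% of all tested genes were higher and 11.3% lower. The lower genes were Gab1 (-0.68) and Nras (-0.17) in the first list and Pik3ca (-0.27) and Pik3r1 (-0.39) in the second, where Akt1 (0.25) was the higher one. These counts rested on single libraries. In the RAS-MAPK list 0 genes were lower without either 4T1 empty library or without 4T1 Gpr56 library 2, and 0 were higher without 4T1 empty library 1, while without 4T1 Gpr56 library 1 there were 3 higher and 2 lower. In the PI3K list there were 0 lower without 4T1 empty library 1, 0 higher and 1 lower without 4T1 empty library 2, and 1 higher and 1 lower without 4T1 Gpr56 library 2.

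Target genes of ERK signalling are a readout further down the same route. Of 23 such genes, 7 were higher and 3 lower in TS/A with the empty vector, so that 10 of 23 passed, where 47.4% of all tested genes did. The median log2 fold change was 0.24, against 0.01 over all tested genes. Egr1, an immediate early transcription factor, read 116 and 107 CPM in TS/A empty-vector libraries, against 8.04 and 5.59 CPM in 4T1 empty-vector libraries (log2 fold change 4.04, SE 0.24, adjusted p = 6.53e-06, edgeR). Spry4, a feedback inhibitor, averaged 39.0 ± 10.7 CPM in TS/A empty-vector and 10.97 ± 0.49 CPM in 4T1 empty-vector libraries (1.83, SE 0.22, adjusted p = 3.29e-04, edgeR). Its family member Spry2 was lower in TS/A, with 10.8 ± 1.49 CPM, against 19.98 ± 0.18 CPM in 4T1 empty-vector libraries (-0.88, SE 0.16, adjusted p = 0.00303, edgeR). Etv4 (0.92), Dusp4 (0.89), Dusp5 (0.80), Dusp6 (0.73) and Spred1 (0.45) were the other higher genes, and Ccnd1 (-1.04) and Ptgs2 (-0.50) the other lower ones. The Ptgs2 call held under 11 of 15 alternatives. Without TS/A empty library 1 there were 7 higher and 9 lower, and without TS/A empty library 2 there were 10 higher and 3 lower.

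With 4T1 fitted alone, 4 of the 23 ERK target genes were higher with the Gpr56 vector and 1 lower. Over all genes tested in that fit 11.5% were higher and 11.3% lower. Ptgs2, the inducible cyclooxygenase gene, averaged 1278 ± 23.8 CPM with the Gpr56 vector and 948 ± 23.8 CPM with the empty vector (a log2 fold change of 0.43 with an SE of 0.05, adjusted p = 2.79e-05, edgeR). Dusp5, an ERK phosphatase gene, averaged 93.5 ± 0.19 CPM with the Gpr56 vector and 66.02 ± 0.17 CPM with the empty vector (0.50, SE 0.06, adjusted p = 4.10e-05, edgeR). Phlda1 (0.43) and Epha2 (0.19) were the other higher genes, and Ccnd1 was lower, with 1065 ± 23.8 CPM with the Gpr56 vector and 1282 ± 4.90 CPM with the empty vector (-0.27, SE 0.05, adjusted p = 0.00123, edgeR). Leaving out 1 library of 4T1 moved the number of higher genes up or down, depending on the library. In the fit of all 8 libraries, 0 genes of these 6 lists passed for the vector effect in 4T1 or in TS/A.

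**Figure D5:**
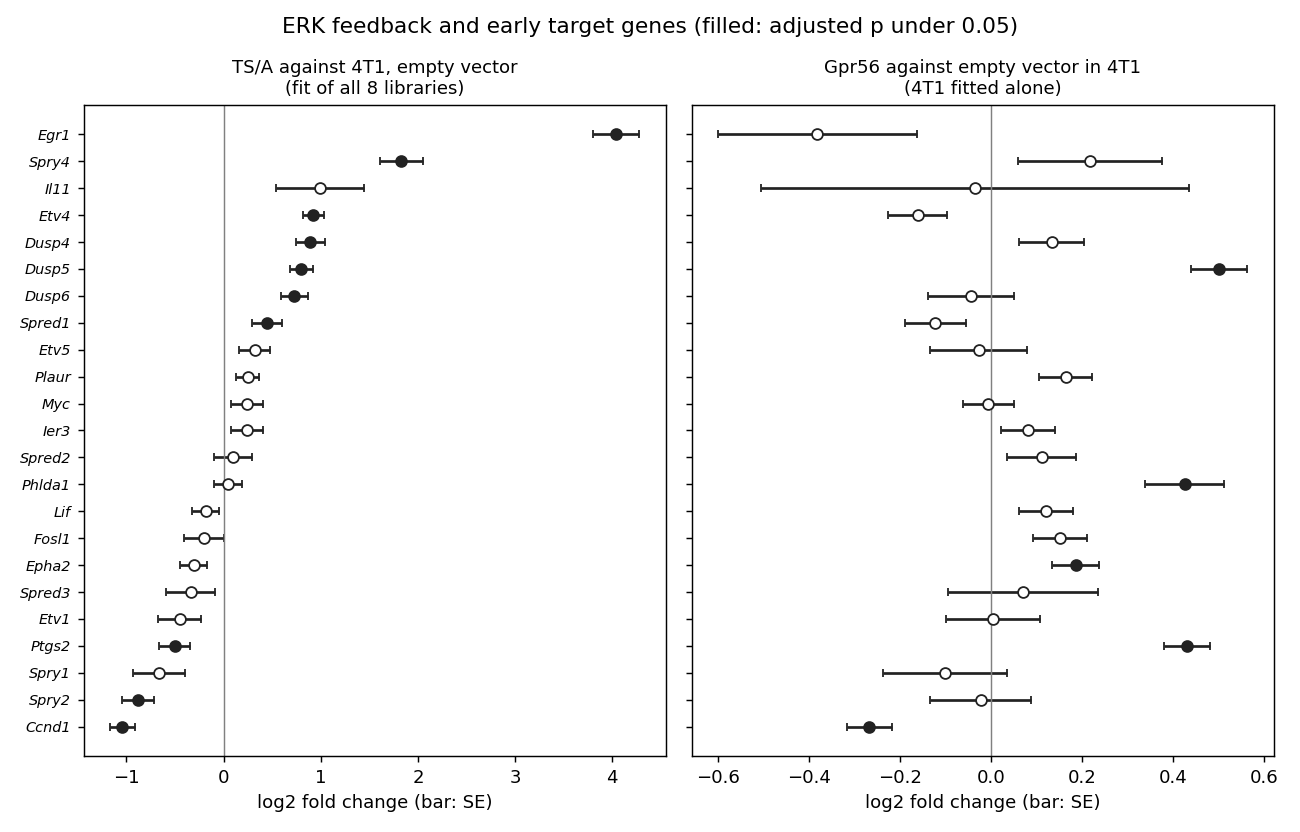
Log2 fold changes with standard errors of 23 ERK feedback and early target genes, for TS/A over 4T1 in empty-vector cells (left) and for the Gpr56 against the empty vector in 4T1 fitted alone (right). Filled points passed an adjusted p of 0.05: 7 higher and 3 lower on the left, with Egr1 at 4.04, and 4 higher and 1 lower on the right, with Dusp5 at 0.50. The left panel is from the fit of all 8 libraries, in which 0 of these genes passed for the vector effect in 4T1.

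The genes most like each member over the 8 libraries were found by the root mean square difference of log2 CPM, each gene centred on its own mean, among 9256 genes of at least 10 CPM in some group. The value is a description of these libraries, which differ mainly by line. Erbb3 had Mapkapk3 (0.21) and Cxcl3 (0.23) among the nearest, against a spread of 1.40 of Erbb3 about its own mean. Tgfa had Dnmbp (0.08), Spint1 (0.13) and Pcdh1 (0.13) nearest, at a spread of 1.11. For Areg they were Ulbp1 (0.08), Aifm2 (0.09) and Celf4 (0.10), at a spread of 0.59, and for Egfr Irf9 (0.15), Tnfaip2 (0.16) and Cnppd1 (0.17), at a spread of 0.51. Hbegf had B4galt3 (0.03), Pip5k1a (0.05) and Tbcd (0.05), Btc had Zfp239 (0.06), Zfp24 (0.07) and Dctn4 (0.08), and Erbb2 had Lrrc8a (0.03), Mgrn1 (0.04) and Pi4ka (0.06).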

How the data were processed

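Bulk RNA of 8 libraries was sequenced after RNeasy Mini extraction and TruSeq RNA v2 library preparation, per the labels' protocols, a kit that does not mark strand. The deposited tables hold whole-number read counts per transcript entry (65042 entries), per the file headers, and RPKM values that the authors computed and deposited beside them. The deposited RPKM of the members implied somewhat more reads per library than the tables list in each library. For the aligner, counter, genome build and annotation, a statement was not given in the sources used here. Coordinates are those of GENCODE M21 (GRCm38), and promoters those of RefSeq.

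Counts were summed over entries by name with the trailing number removed. All 8 columns of counts were mapped to a sample by file. The members and gene lists were chosen with earlier results of these data known. Named genes were all 9 members, Adgrg1, up to 3 genes each way with the smallest p per list, and the 3 genes most like each member; other list genes that passed were named to complete a count, after their values were seen. A few genes that this rule names are counted but not reported here by name. After filterByExpr and TMM scaling, genes were tested by the quasi-likelihood functions glmQLFit and glmQLFTest of edgeR 4.0.16 (R 4.3.3) in 1 fit of 4 groups, with Benjamini-Hochberg adjustment over all 11970 genes at 0.05 and no fold limit. Each SE was obtained from the fold change and the F statistic. The scripts were tested on simulated data. CPM are TMM-scaled except sums, which use library totals. Replicates differed by more than sampling noise (chi-square over its degrees of freedom at least 3.58), and none was merged.

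Alternatives were DESeq2 1.42.0 size factors or its Wald test, library totals, other filters, leaving out each library, the replicate block, 1 line alone, and the line contrast under the Gpr56 label. Leaving out libraries from the fit of 1 line alone, and library totals in it, were added after the data were seen.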

Additional observations from a re-analysis of the deposited data

Results flagged for a closer look

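Adgrg1, the gene of the vector, differed between the lines in its response to the vector label. The log2 difference between the vector effects, TS/A minus 4T1, was -5.67 (SE 0.55, adjusted p = 0.0204, edgeR's quasi-likelihood test), from a log2 fold change of -0.51 in TS/A and 5.16 in 4T1. Leaving out 1 library at a time gave values from -6.11 to -5.00. The difference missed the threshold without any 1 of the 4T1 libraries or of the TS/A libraries labelled Gpr56, with adjusted p from 0.104 to 0.274 (edgeR), and passed it without either TS/A empty-vector library.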

How the results depend on the processing

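Of 542 values of members under an alternative, 496 kept their direction and side of the threshold, 4 lost it, 19 gained it and 23 changed sign. In the line contrast, 6 members passed with the replicate block and 5 to 7 with 1 library left out. All-gene counts for that contrast ran from 3335 to 7853 with 1 library left out. For the vector effect in 4T1, 27 genes and 0 members became 260 genes and 1 member with the DESeq2 Wald test, 266 genes and 1 member with no filter, 2588 genes and 5 members with 4T1 alone, and 0 to 1285 genes and 0 to 4 members with 1 library left out. The 4 members, reached without either TS/A empty-vector library, were Egfr, Erbb2, Erbb3 and Areg. With 4T1 alone, leaving out 1 library gave 1403 to 2748 genes (1596 without 4T1 empty library 1) and 3 to 5 members. For the vector label in TS/A, 1 gene became 0 with library totals, with the replicate block or with TS/A alone, 10 with the Wald test, 8 with no filter and 0 to 2933 with 1 library left out, with 0 members throughout. TS/A alone with 1 library left out gave 4, 13, 13 and 1140. For the difference between vector effects, 8 genes became 4 with library totals, 65 with the Wald test, 60 with no filter, 3 with the replicate block and 0 to 2391 with 1 library left out, where members ran from 0 to 2. The cause of these changes was not tested.

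Signs changed mostly for log2 values near 0. Adgrg1 in TS/A, at -0.51, was the exception: it was 0.15 without TS/A empty library 1, and -0.94 and past the threshold (adjusted p = 0.00780, edgeR) without TS/A empty library 2. With 1 library left out, the TS/A label effect ran from -0.27 to 0.28 for Erbb2, -0.11 to 0.33 for Erbb3, -0.00965 to 0.0917 for Areg, -0.12 to 0.49 for Tgfa, -0.15 to 0.0173 for Btc, -0.18 to 0.0911 for Epgn and -0.95 to 0.15 for Adgrg1. With TS/A alone, the values with a changed sign were 0.272 and 0.0801 for Erbb2 (range -0.25 to 0.27), -0.0824 and -0.0661 for Erbb3 (range -0.08 to 0.33), -0.0966 and -0.0488 for Tgfa (range -0.10 to 0.49), 0.0227 and 0.0235 for Btc (range -0.15 to 0.02) and 0.139 for Adgrg1 (range -0.93 to 0.14). Erbb2 between the lines ran from -0.25 to 0.30 and was -0.35 under the Gpr56 label, Tgfa in the difference ran from -0.46 to 0.15, and Hbegf in 4T1 alone from -0.0010 to 0.07. Deviations of like-numbered libraries correlated at 0.313 between the TS/A groups and at -0.059 to 0.0314 in other pairs of groups. A link by replicate number within TS/A alone was not tested. The replicate block, 1 term shared by both lines, changed no member's call. Depth limits Epgn, with 6 to 23 reads per library, and Ereg most.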
